A study of Mus musculus with 30 samples.

Results

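The loci of 7 transcription factors that direct the germ layers were followed through chromatin immunoprecipitation (ChIP) peak lists of mouse embryonic stem (ES) cells. Members were all called peaks that overlapped 7 windows of the mouse build mm9 by at least 1 bp. The windows were chr18:11040000-11090000 for Gata6, chr14:63800000-63905000 for Gata4, chr1:4475000-4500000 for Sox17, chr17:8620000-8645000 for T, chr9:118375000-118405000 for Eomes, chr2:105500000-105545000 for Pax6 and chr14:49265000-49300000 for Otx2. They took in 334 of the 240359 peaks in 20 lists. The cells were E14Tg2A, a mouse ES line grown without feeder cells in serum with leukemia inhibitory factor, and every group shared this background. The 6 targets were EPOP (C17orf96 in the labels), EloB (Elongin B), Suz12, Jarid2 and the histone marks H3K27me3 and H3K4me3. Each was profiled in control cells (no knock-down) and upon EPOP knock-down, made with a lentiviral short hairpin RNA. Suz12 and H3K4me3 were also profiled upon EloB knock-down, made with small interfering RNA (siRNA). There were 2 lists without knock-down for EPOP, EloB, Suz12 and H3K4me3, 2 lists upon EPOP knock-down for EPOP and EloB, and 1 list for every other group.

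Several features of the labels bear on the comparisons. The 2 EPOP replicates differed in the lot of a home-made antibody and the 2 EloB replicates in the antibody itself, with the same reagent in the same-numbered knock-down list, and cells for EloB ChIP were first crosslinked protein to protein. The library titled EPOP knock-down replicate 1 has a description that names IgG, and the sample titled IgG has one that names EPOP. The titles were followed, and each EPOP result is given for both knock-down lists. The file headers give Suz12 list 1 and H3K4me3 list 2 the name si ct, read here as the siRNA control, and Suz12 list 2 and H3K4me3 list 1 the name sh ct, read as the hairpin control. Knock-down lists were therefore set against both control lists and against the one of the same method. Whether replicates came from separate cultures is not stated in the labels, so p-values measure only the spread between these samples, which may be technical. The lists held 108 to 47296 peaks, their read depth is unknown, and the ES cell identity could not be checked against marker expression because no RNA values were analysed here.

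Gata6, Gata4 and Sox17 are regulators of endoderm. T (brachyury) and Eomes are T-box factors of mesoderm and of the primitive streak, Pax6 directs neural ectoderm and eye, and Otx2 is a factor of the epiblast and anterior neural tissue. In ES cells such genes are the textbook case of bivalent chromatin, in which CpG-rich promoters carry the activating mark H3K4me3 together with H3K27me3. H3K27me3 is set by Polycomb repressive complex 2 (PRC2), of which Suz12 is a core subunit, while Jarid2 and EPOP are accessory subunits found in different forms of the complex. EloB is a subunit of the elongin complex and binds EPOP.

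Because CpG-rich DNA is where PRC2 and H3K4me3 are usually found, the promoters of the members held in the RefSeq promoter table are shown. The table (build GRCm38.p6) held 4 of the 7 members, T, Eomes, Pax6 and Otx2. Each line gives the 250 bases before the start site, 5′ to 3′ on the gene's strand, with every CG dinucleotide in capitals. The positions are chr17:8434173-8434422 for T, chr9:118477939-118478188 for Eomes, chr2:105668646-105668895 for Pax6 (all on the plus strand) and chr14:48667645-48667894 for Otx2 (minus strand).
T: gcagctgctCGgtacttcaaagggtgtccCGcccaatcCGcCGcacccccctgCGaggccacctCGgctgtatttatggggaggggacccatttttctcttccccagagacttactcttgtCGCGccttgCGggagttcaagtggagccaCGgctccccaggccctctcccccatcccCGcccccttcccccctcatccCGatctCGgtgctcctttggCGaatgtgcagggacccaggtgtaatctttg
Eomes: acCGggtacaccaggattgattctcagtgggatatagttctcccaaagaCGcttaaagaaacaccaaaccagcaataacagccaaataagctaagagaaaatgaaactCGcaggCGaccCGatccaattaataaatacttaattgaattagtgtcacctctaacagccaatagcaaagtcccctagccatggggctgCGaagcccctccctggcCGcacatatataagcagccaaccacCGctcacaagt
Pax6: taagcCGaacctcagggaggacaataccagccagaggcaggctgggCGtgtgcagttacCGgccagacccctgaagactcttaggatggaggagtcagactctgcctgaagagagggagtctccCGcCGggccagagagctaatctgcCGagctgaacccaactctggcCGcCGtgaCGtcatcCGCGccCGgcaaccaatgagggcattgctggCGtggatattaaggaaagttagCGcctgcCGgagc
Otx2: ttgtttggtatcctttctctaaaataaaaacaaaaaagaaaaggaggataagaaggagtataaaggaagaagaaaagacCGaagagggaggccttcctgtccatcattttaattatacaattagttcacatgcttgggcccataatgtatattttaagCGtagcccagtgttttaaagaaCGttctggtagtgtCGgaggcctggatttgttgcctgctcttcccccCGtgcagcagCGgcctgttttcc
CG was counted 14 times at T, 15 times at Pax6, 8 times at Eomes and 6 times at Otx2. The median over all 32851 promoters of the table was 6, and 92.1% held at least 1. At least as many CG as at Pax6 were found in 27.3% of promoters, as at T in 29.4%, as at Eomes in 43.0% and as at Otx2 in 50.4%. By this count the stretches of T and Pax6 were CG-rich and that of Otx2 was at the median. Pax6 has 2 start sites in the table and Otx2 has 4, and the most upstream one was used. The peaks are on mm9 and these sequences on another build, so the sequences were not placed against the peaks.

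**Figure D1:**
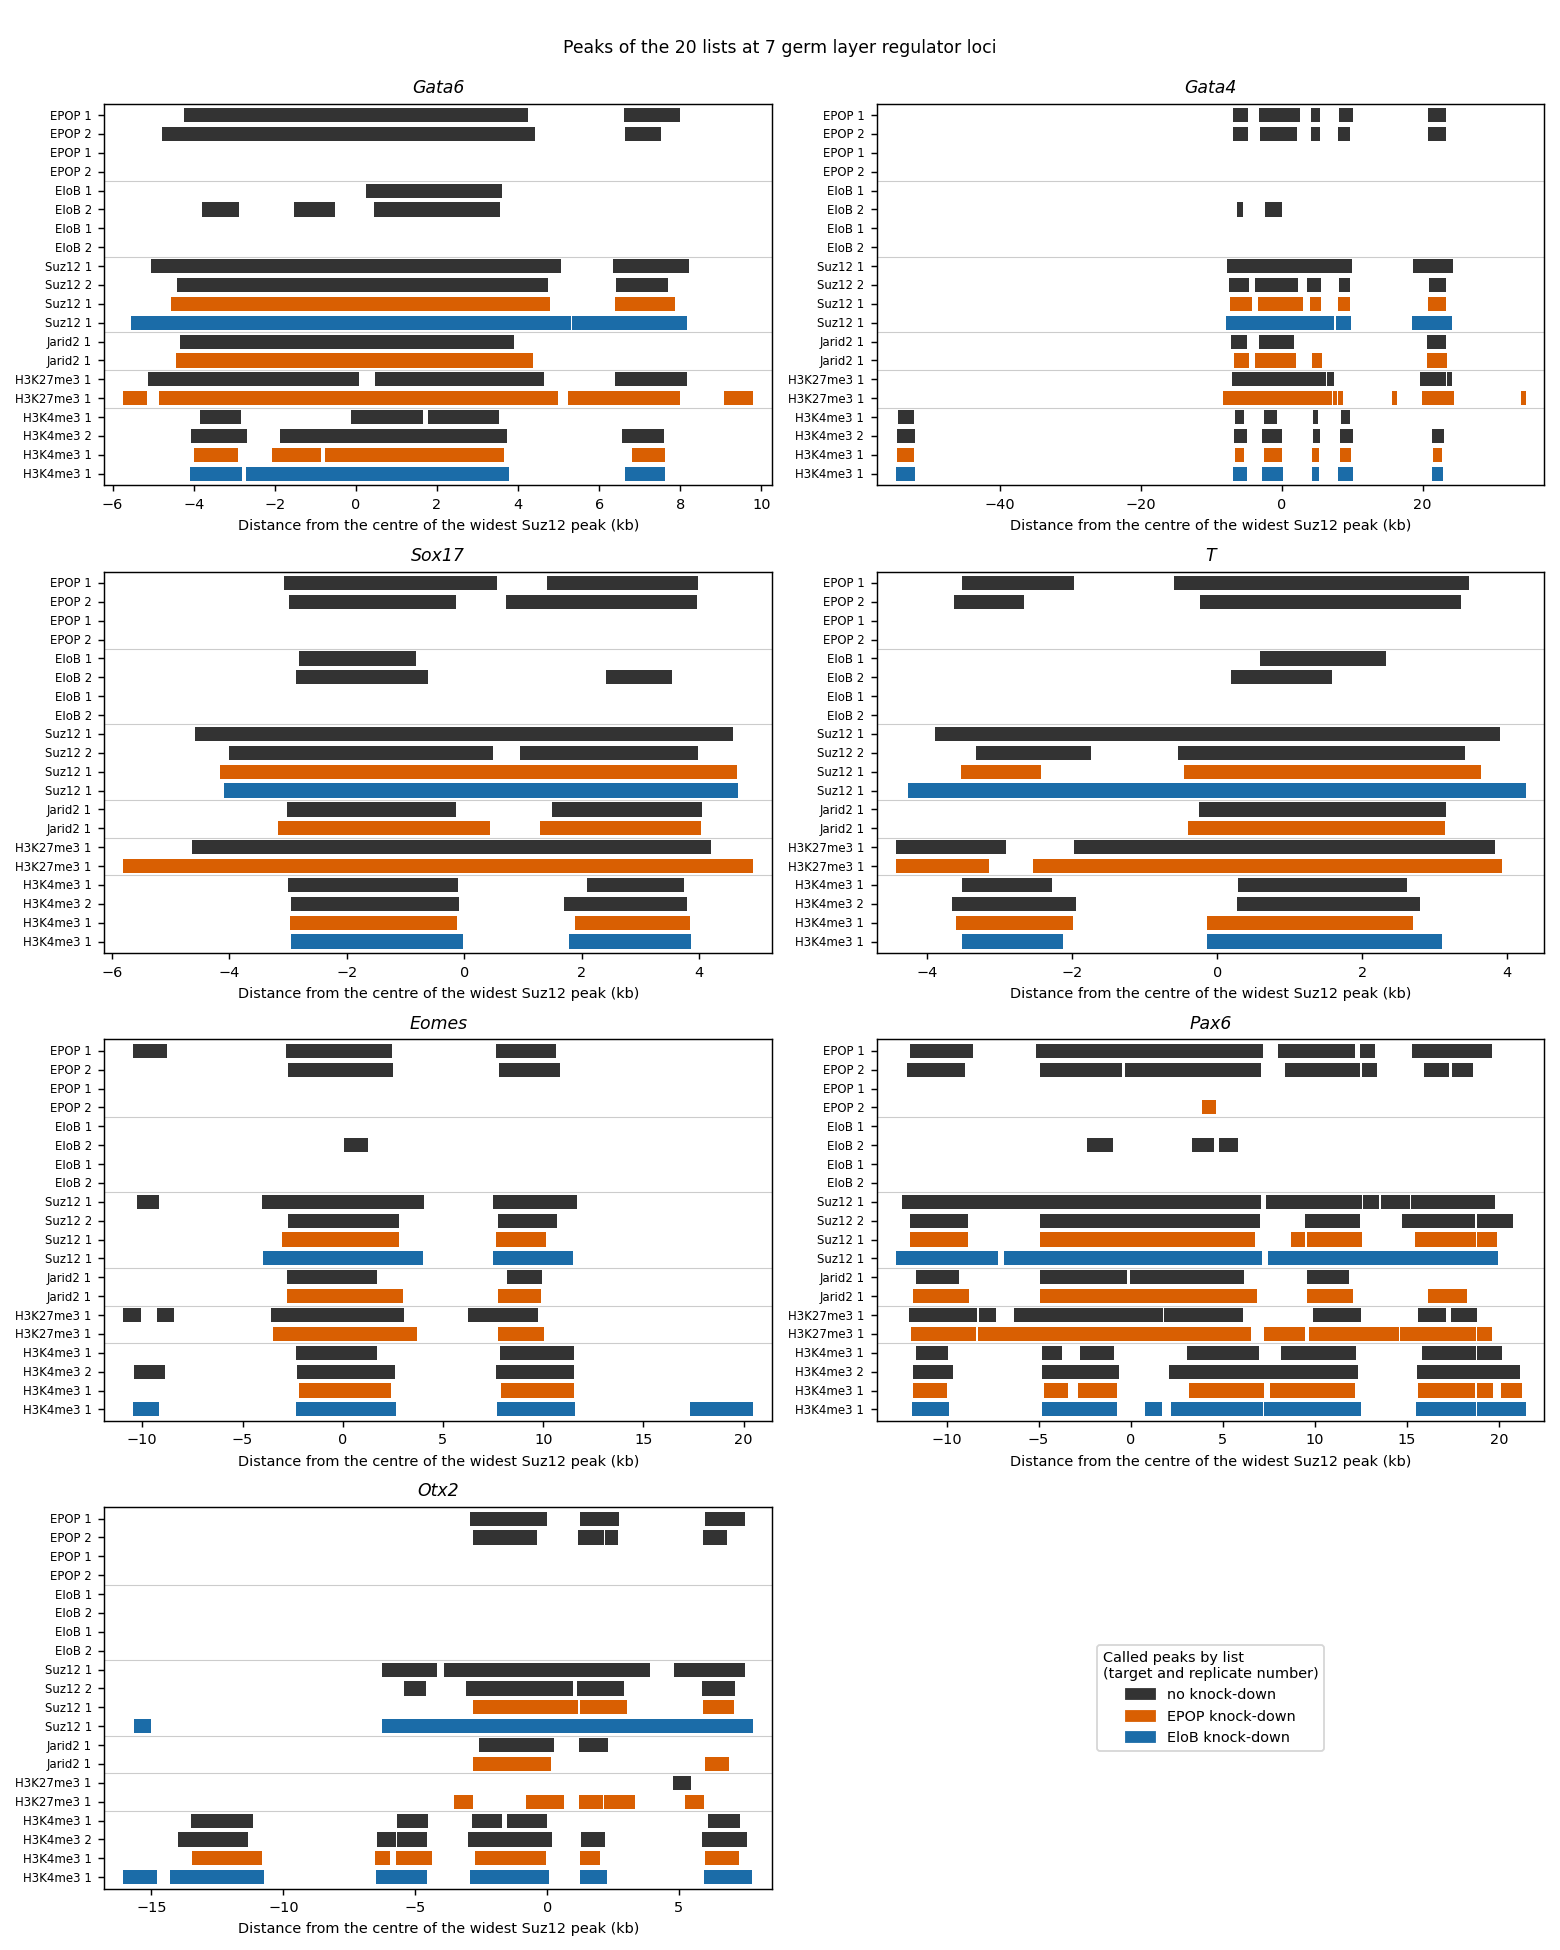
Called peaks (bars) of the 20 lists at each locus, 1 row per list (target and replicate number), against the distance in kb from the centre of the widest Suz12 peak without knock-down. Black bars are lists without knock-down, orange upon EPOP knock-down and blue upon EloB knock-down; EPOP and EloB rows upon EPOP knock-down are empty but for 1 bar at Pax6, while the Suz12, Jarid2, H3K27me3 and H3K4me3 rows remain filled.

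Without knock-down EPOP had peaks at all 7 loci in both lists. The summed length of EPOP peaks in a window was 25183 and 22383 bp at Pax6, the longest of the loci (23783 ± 1980 bp, SD, n = 2). It was 13801 and 13046 bp at Gata4 (13423.5 ± 534 bp). At Gata6 it was 9842 and 10084 bp (9963 ± 171 bp). Eomes lay close to Gata6, with 9931 and 8241 bp (9086 ± 1195 bp), and the lists of the 2 loci overlapped. Sox17 had 6202 and 6078 bp (6140 ± 87.7 bp), Otx2 5952 and 4840 bp (5396 ± 786 bp) and T 5607 and 4553 bp (5080 ± 745 bp). The order was thus Pax6, Gata4, then Gata6 and Eomes, then Sox17, then Otx2 and T, where neighbours joined by "and" overlapped between lists. Windows differ in width, from 25001 bp at Sox17 and T to 105001 bp at Gata4, so the order is one of extent and not of density.

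The shape of EPOP occupancy differed among the loci. At Gata6 most of it was a single broad peak of 8471 bp in list 1 and 9208 bp in list 2 (chr18:11047152-11056359 when merged), wider than 99.5% and 99.4% of the peaks of its list. Its deposited score, the authors' own value for a peak, was 2146 in list 1 and 2231 in list 2, at percentiles 98.5 and 96.9 of the list. At Pax6 4 regions followed each other between chr2:105499146 and chr2:105530947, the widest of them 12336 bp (chr2:105506140-105518475). It was a single peak in list 1, wider than 99.9% of the list, and 2 peaks of 4422 and 7373 bp in list 2. Gata4 had 5 regions between chr14:63858713 and chr14:63889027, the strongest of 5820 bp with scores of 1485 and 1502. At Eomes the main region spanned 5352 bp (chr9:118384847-118390198) and at T 4069 bp (chr17:8624853-8628921). Sox17 had 2 regions of 3631 and 3263 bp. Otx2 had 3 small ones, and its widest EPOP peak, 2936 bp in list 1 and 2439 bp in list 2, stood at percentiles 86.7 and 77.6 of the list by width.

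Upon EPOP knock-down almost no EPOP peak was called at these loci. Of the 20 EPOP regions shared by both control lists, 0 overlapped a peak of knock-down list 1 (0%, Wilson 95% interval 0 to 16.1%) and 1 overlapped a peak of knock-down list 2 (5.00%, 0.888 to 23.6%). The summed length was 0 bp at Gata6, Gata4, Sox17, T, Eomes and Otx2 in both knock-down lists. The exception was Pax6, where list 2 held 1 peak of 773 bp with a score of 51.9 (chr2:105515160-105515932), inside the 12336 bp region. Over all windows the summed length was 72871.5 ± 5157 bp without knock-down and 386.5 ± 547 bp upon knock-down (n = 2 each), and the groups did not overlap. An exact two-sided permutation test gave p = 0.333, the smallest that 2 unpaired lists against 2 can give. It did not use the antibody lot that same-numbered lists share. Over the whole lists 99.2% and 91.1% of 5720 EPOP regions were missing, so the loci were near the background. The knock-down lists held 108 and 818 peaks in all against 11072 and 6547, and how far read depth or the antibody lot took part was not tested.

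EloB, which binds EPOP, was found at fewer of the loci and differed between its lists. In list 1 it had peaks at 3 loci, with 3336 bp at Gata6, 1998 bp at Sox17 and 1734 bp at T. In list 2 it had peaks at 6 loci, with 5035 bp at Gata6, 3362 bp at Sox17, 1386 bp at T, 3618 bp at Pax6, 3249 bp at Gata4 and 1183 bp at Eomes. Otx2 had no EloB peak in either list. The lists used different antibodies, and whether that sets the difference between 3 and 6 loci was not tested. The peak at Gata6 ranked high in both lists, at percentiles 98.5 and 99.3 by score. At the loci 100% of the EloB bases of each list lay where both EPOP lists had a peak, against 83.4% and 91.5% over the whole lists.

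No EloB peak was called at any of the 7 loci in either list upon EPOP knock-down. The 3 EloB regions shared by both control lists, at Gata6, Sox17 and T, were missing in both knock-down lists (0 of 3 kept in each, Wilson 95% interval 0 to 56.1%). Over all 930 EloB regions 92.3% and 93.3% were missing, so the loci did as most regions did. Summed over the windows, EloB covered 7068 and 17833 bp without knock-down and 0 bp in both lists upon it, and the exact two-sided permutation test gave p = 0.333, its smallest value. At Gata4, Eomes and Pax6 list 1 was already at 0, and the same exact permutation test gave p = 1.00.

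**Figure D2:**
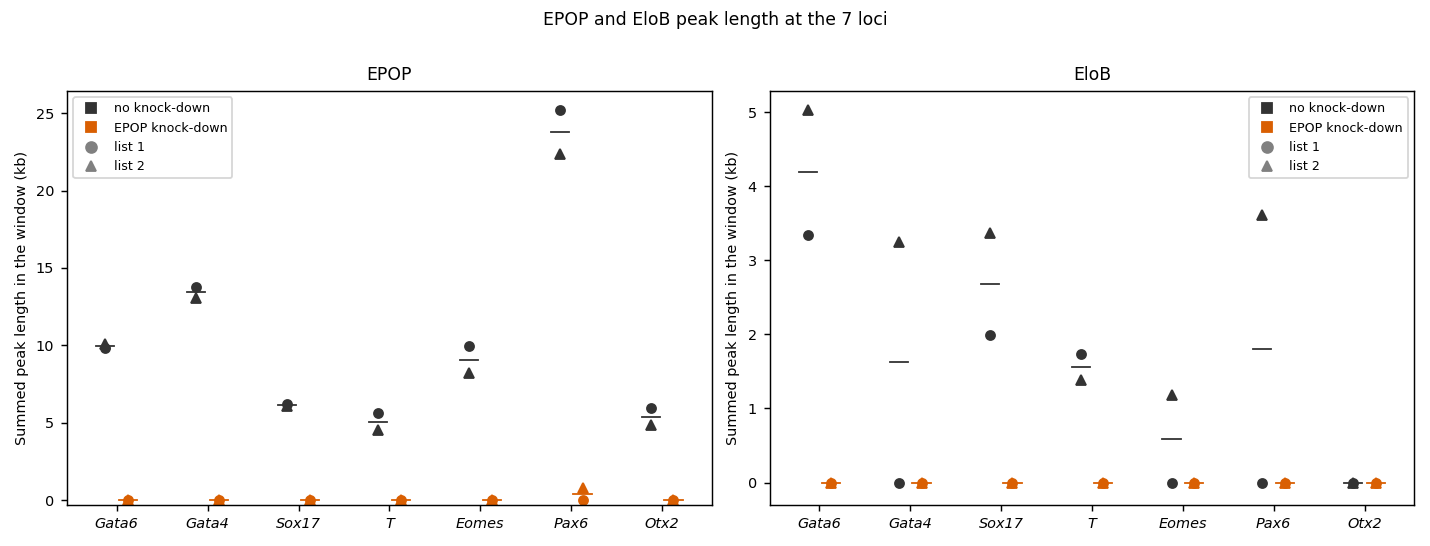
Summed length of EPOP and EloB peaks (kb) at each locus, 1 point per list, in control cells (black) and upon EPOP knock-down (orange), with short lines at the mean of 2 lists. EPOP points lie between 4553 and 25183 bp without knock-down and at 0 upon it, apart from 773 bp at Pax6, and EloB points reach 5035 bp at Gata6.

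The 20 EPOP regions were next compared with the other targets in lists without knock-down. Suz12 overlapped 20 of 20 in both of its lists, against 93.5% and 92.0% of all 5720 EPOP regions. Jarid2, the accessory subunit, overlapped 14 (70.0%, against 40.6%). H3K27me3 overlapped 16 (80.0%, against 84.4%), and H3K4me3 17 and 20 (against 95.9% and 98.3%). EloB overlapped 3 and 8, against 16.3% and 20.6%. These are counts for loci chosen by gene, with the whole lists beside them, and no test of the difference was made. By bases, EPOP peaks of both lists covered 82.0% of the Suz12 bases of both lists at the loci and 81.9% over the whole lists. Among loci this share ran from 93.3% at Eomes and 89.4% at Gata6 to 71.5% at Sox17 and 59.5% at Otx2. Jarid2 covered 66.9% of the same Suz12 bases against 45.0%, and H3K4me3 of both lists 56.3% against 75.8%.

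H3K27me3 separated Otx2 from the other loci. Of the Suz12 bases shared by both Suz12 lists it covered 83.0% at T, 84.1% at Pax6, 86.3% at Gata4, 88.6% at Eomes, 95.2% at Gata6 and 100% at Sox17, and 0% at Otx2. Over the whole lists the share was 79.9%. Otx2 thus had Suz12, Jarid2, EPOP and H3K4me3 peaks but a single H3K27me3 peak of 668 bp (chr14:49291819-49292486) with a score of 69.7, at percentile 23.7 of its list, which overlapped none of the EPOP regions. That peak overlapped a Suz12 peak of list 1 (chr14:49291847-49294519) but none of Suz12 list 2, so the 0% holds for the shared bases only. With 1 H3K27me3 list without knock-down the values at Otx2 have no replicate check.

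**Figure D3:**
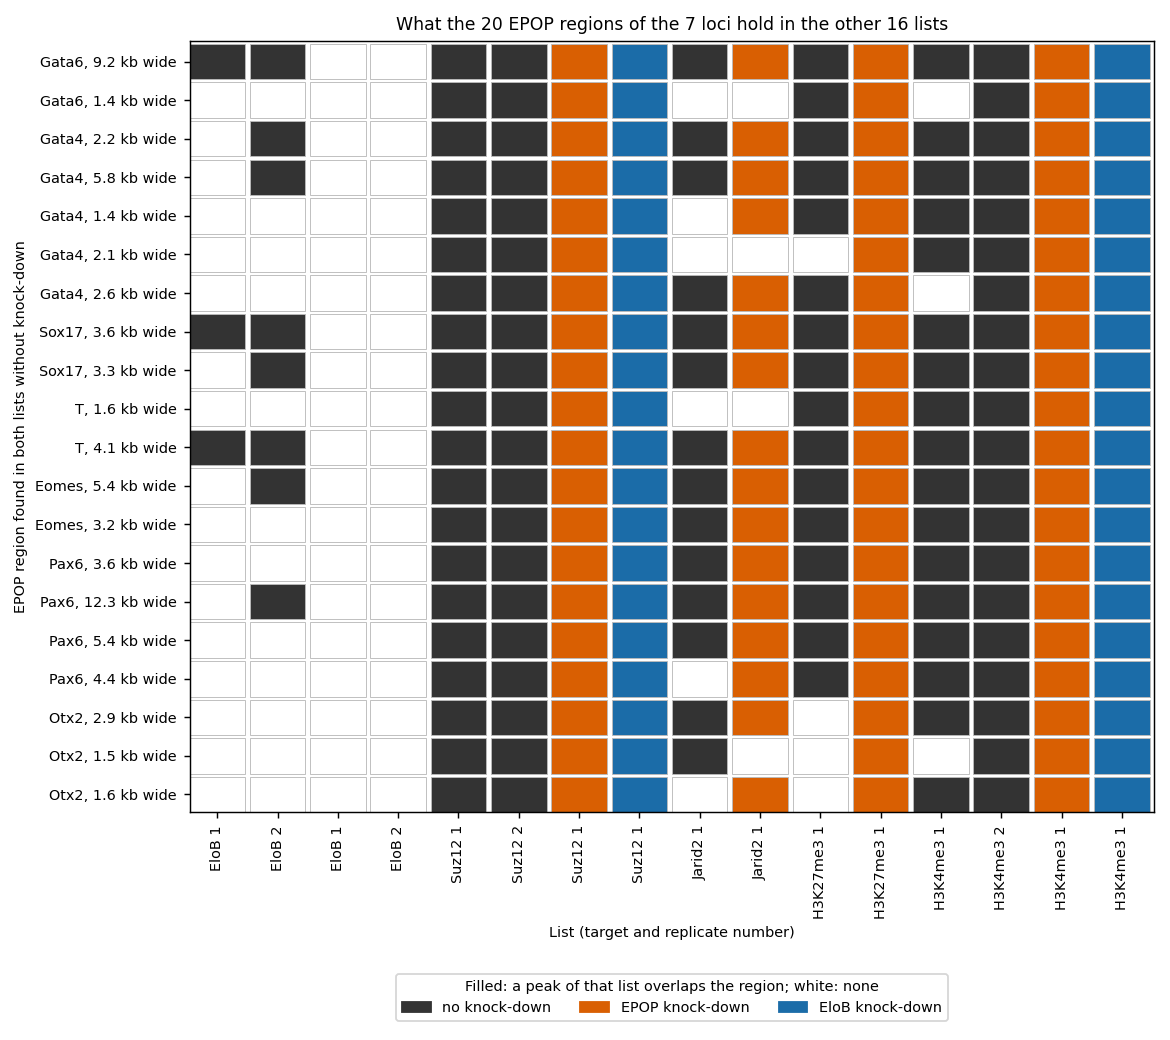
Each row is 1 of the 20 EPOP regions shared by both control lists (gene and merged width in kb) and each column 1 of the 16 lists of the other targets; a filled cell means that a peak of that list overlaps the region by at least 1 bp. Suz12 columns are filled throughout, and EloB is filled in 3 and 8 rows without knock-down and in none upon EPOP knock-down. H3K27me3 passes from 16 to 20 rows, while over all 5720 EPOP regions its share was 84.4% without and 83.3% upon EPOP knock-down.

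Suz12 remained at all 7 loci upon EPOP knock-down. Of 16 Suz12 regions in the windows, 15 held a knock-down peak (93.8%, Wilson 95% interval 71.7 to 98.9%), and over all 5669 regions 3.10% were missing. Of 21 knock-down peaks 0 were new, where 13.8% of the list was. The missing region lay at Otx2 (chr14:49280776-49282841). The broad Suz12 domain of Gata6 (chr18:11046878-11056984) was covered for 10107 and 9172 bp without knock-down and 9347 bp upon it. Its sum over the window was 11984 and 10454 bp without knock-down and 10807 bp upon it, between the 2 control lists. Gata4 (23308 and 15044 bp against 15523 bp) and Sox17 (9155 and 7534 bp against 8800 bp) also lay between them. The other 4 loci lay below both control lists: T with 7791 and 5538 bp against 5187 bp, Eomes with 13342 and 8537 bp against 8341 bp, Pax6 with 31728 and 24051 bp against 22975 bp, and Otx2 with 12524 and 7959 bp against 6922 bp.

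The distance to the lower control list was small beside the gap between the control lists at each of these 4 loci. To compare like with like, peaks of the Suz12 lists were merged into stretches with a peak in every list. Of 15 stretches at the loci 0 were longer than in both control lists, 7 were shorter than in both and 8 lay between, while over all 5483 stretches 15.2% were longer and 22.9% shorter. Their median log2 ratio to the mean of the controls was -0.25, against -0.07 over all stretches. Against the control of the same method, list 2, 8 of 15 stretches were longer, where 74.8% of all stretches were, and against list 1 0 of 15 were, where 17.4% were. With 1 knock-down list these lengths have no test, and the part of depth in them was not tested.

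Upon EloB knock-down all 16 Suz12 regions held a peak (100%, 80.6 to 100%), with 2.33% missing over all regions. The summed length exceeded both control lists at 4 loci, with 13675 bp at Gata6, 8511 bp at T, 31973 bp at Pax6 and 14709 bp at Otx2. With peaks clipped to the windows 3 loci did, without Pax6. Gata4 with 23271 bp, Sox17 with 8746 bp and Eomes with 11995 bp lay between them. At Otx2, where control list 1 had 3 peaks, this list held 1 of 14058 bp and a separate peak of 651 bp that overlapped no control peak, where 8.55% of all peaks of this list were new. Of 12 stretches 7 were longer than in both control lists and 0 shorter (56.7% longer and 4.87% shorter over all), with a median log2 ratio of 0.23 against 0.22. Against the siRNA control alone 7 of 12 were longer, where 58.9% of all stretches were, and against list 2 12 of 12 were, where 92.9% were, so the loci were near the whole list.

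**Figure D4:**
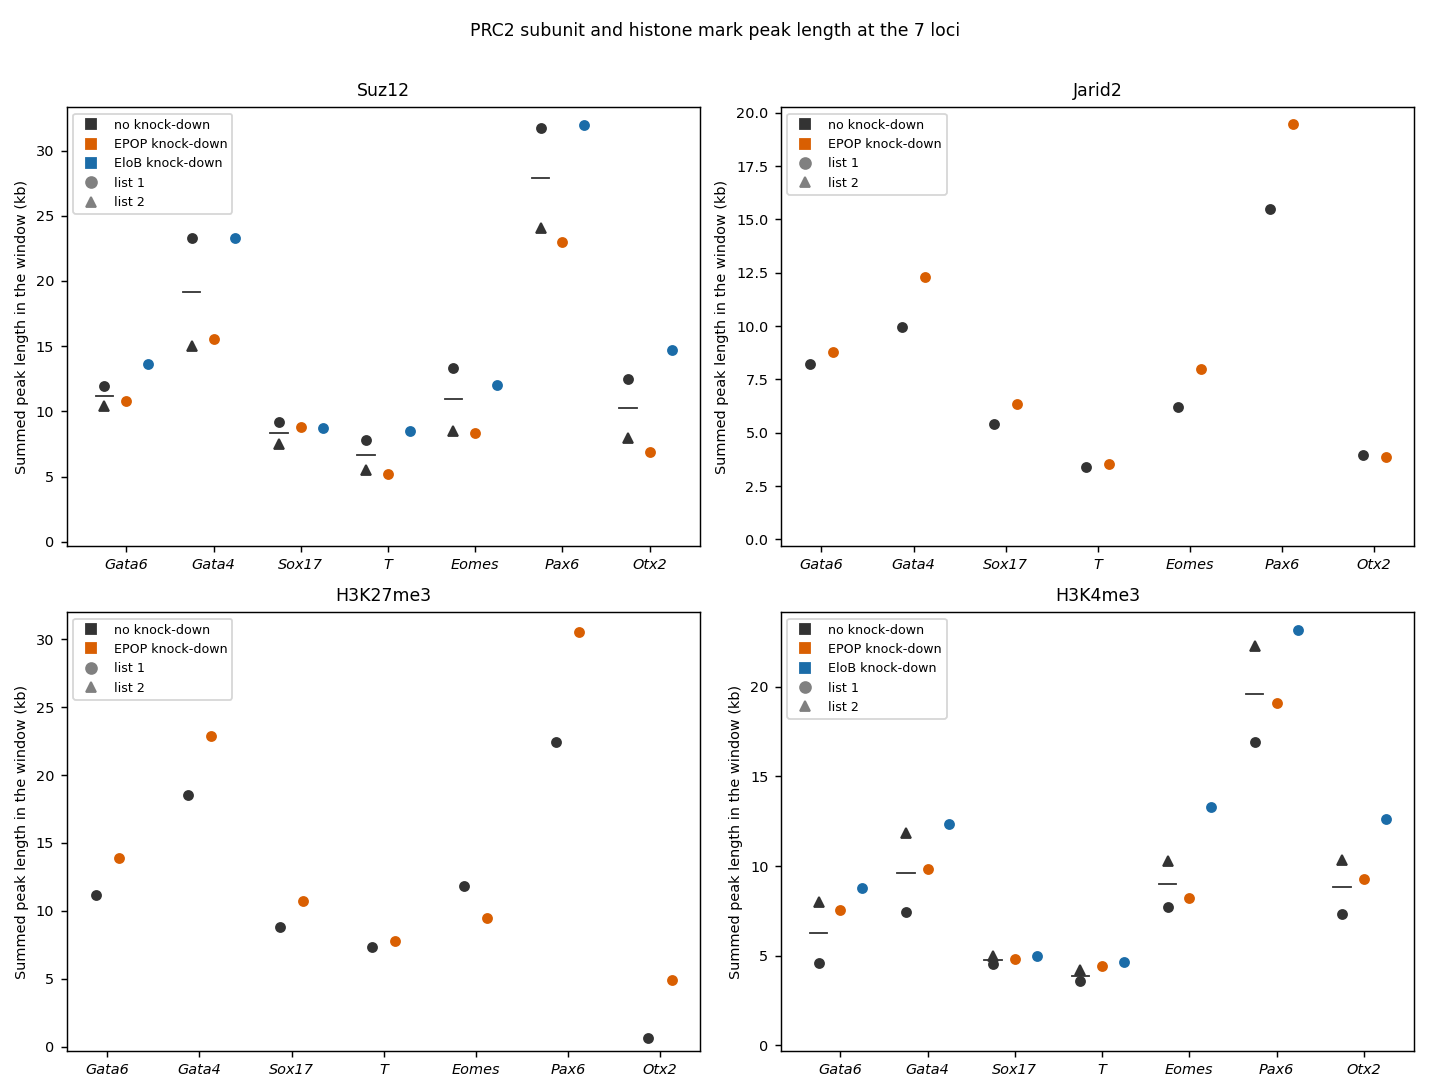
Summed length of Suz12, Jarid2, H3K27me3 and H3K4me3 peaks (kb) at each locus, 1 point per list, without knock-down (black), upon EPOP knock-down (orange) and upon EloB knock-down (blue). Short lines mark the mean of 2 lists. Suz12 upon EPOP knock-down lies below both black points at 4 loci and between them at 3, Jarid2 lies higher at 6 loci, and H3K27me3 is higher at 6 loci and lower at Eomes; the directions of Jarid2 at Otx2 and of H3K27me3 at Eomes and T turned with only peaks at or above the median control score.

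Jarid2 covered more of the loci upon EPOP knock-down, as it did over its whole list. Its summed length went from 8228 to 8797 bp at Gata6, 9948 to 12289 bp at Gata4, 5418 to 6357 bp at Sox17 and 3416 to 3538 bp at T. It went from 6197 to 7979 bp at Eomes and from 15481 to 19453 bp at Pax6, and at Otx2 from 3935 to 3881 bp. The Otx2 sum was 98.6% of the control and 104% with only peaks at or above the median control score, where all 7 loci had longer sums, so its direction depended on the score minimum. Of 15 Jarid2 regions 14 were kept (93.3%, 70.2 to 98.8%; 3.10% were missing over all 2641). The missing region was again at Otx2 (chr14:49288245-49289328). Of 17 knock-down peaks 3 were new, where 33.4% of the list was new: 1 at Otx2 (chr14:49293012-49293931), 1 at Gata4 (chr14:63869921-63871376) and 1 at Pax6 (chr2:105527448-105529583). These 3 lay on EPOP regions that had no Jarid2 peak without knock-down. There were 6 such EPOP regions, of which 3 held a knock-down peak, against 31.3% of 3396. Of 13 stretches 12 were longer, where 88.4% of all were, and 1 shorter, where 11.3% were. The median log2 ratio was 0.11 against 0.25. The Jarid2 list as a whole grew from 2641 to 3665 peaks, and with 1 list a side no test was possible.

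H3K27me3 also covered more of most loci. Its summed length was 11136 bp without and 13917 bp with EPOP knock-down at Gata6. The pair was 18563 and 22900 bp at Gata4, 8827 and 10719 bp at Sox17 and 7322 and 7763 bp at T. It was 22422 and 30497 bp at Pax6, and Eomes went the other way, from 11859 to 9476 bp. The main Eomes peak was nevertheless longer upon knock-down (6641 and 7166 bp), while the second was shorter (3485 and 2310 bp). The highest score in the window was higher upon knock-down at every locus, with 409 and 1282 at Eomes. The scale of the scores differed between the lists, as a score of 409 stood at percentile 87.9 without knock-down and 74.9 upon it. By percentile in its own list, the highest-scoring peak stood lower upon knock-down at Pax6 and higher at the other loci. Scores have no given definition and depth is unknown, so these score differences were not tested. Regions were kept in 21 of 23 cases (91.3%, 73.2 to 97.6%), where 23.0% of all 8811 were missing. Both missing regions were at Eomes (chr9:118376731-118377626 and chr9:118378420-118379256), with control scores of 56.9 and 74.3. Of 14 stretches 11 were longer, where 67.0% of all were, and 3 shorter, where 32.9% were, with a median log2 ratio of 0.13 against 0.15.

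Otx2 showed the largest relative difference of the 7 loci in H3K27me3. It went from 1 peak of 668 bp to 5 peaks with 4944 bp, a log2 ratio of 2.89 in summed length. The 5 peaks were 708 to 1424 bp wide, and the widest (chr14:49286227-49287650) had a score of 222, at percentile 58.9 of its list. The others stood at percentiles 29.6 to 39.0 by score, and with 1 list a side no test was possible. All 4 EPOP regions of the loci that had no H3K27me3 peak without knock-down, 3 at Otx2 and 1 at Gata4, held one upon knock-down, where 38.4% of 893 such regions did. Over all 5720 EPOP regions the share with an H3K27me3 peak was 84.4% without knock-down and 83.3% upon it. Of 26 knock-down peaks 11 were new (26.7% of all peaks of the list), with 4 at Otx2, 3 at Gata4, 2 at Gata6 and 2 at Pax6. With only peaks at or above the median control score, the control peak of Otx2 was left out and no ratio could be given. In that part Eomes went from 79.9% to 108% of the control length and T from 106% to 88.4%, so the direction at these 2 loci depended on the score minimum.

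H3K4me3, the mark of active and bivalent promoters, was present at every locus in each of its 4 lists. Upon EPOP knock-down 22 of 22 regions were kept (100%, 85.1 to 100%; 3.86% were missing over all 32277), and 0 of 30 knock-down peaks were new (6.31% over all). Summed lengths lay between the 2 control lists at 6 loci, for example 4568 and 8010 bp against 7530 bp at Gata6 and 16923 and 22256 bp against 19088 bp at Pax6. The other 4 were Gata4 (7420 and 11837 against 9845 bp), Sox17 (4537 and 4962 against 4796 bp), Eomes (7741 and 10258 against 8229 bp) and Otx2 (7342 and 10323 against 9253 bp). T lay above both, with 3568 and 4223 bp against 4438 bp, but with only peaks at or above the median control score no locus did and T went from 114% to 86.4% of the mean control length. Of 22 stretches 3 were longer than in both control lists and 2 shorter, where 31.9% and 21.1% of all were. Against list 2 alone 3 of 22 were longer, where 35.2% of all were. The median log2 ratio was 0.00 at the loci and 0.02 over all. The controls themselves differed: list 2 was longer than list 1 at all 7 loci, and against list 1, the hairpin control, 20 of 22 stretches were longer upon EPOP knock-down, where 75.4% of all were.

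Upon EloB knock-down the 22 H3K4me3 regions were also all kept (1.03% missing over all), and the summed length was above both control lists at 7 of 7 loci. It was 8767 bp at Gata6, 12320 bp at Gata4, 5003 bp at Sox17, 4630 bp at T, 13307 bp at Eomes, 23172 bp at Pax6 and 12647 bp at Otx2. The higher control was nearest at Sox17, with 4962 bp. At Eomes the sum holds a peak of 3144 bp that meets the window by its end alone, and with peaks clipped to the windows 6 loci stood above both controls. With only peaks at or above the median control score 5 did, and T went from 119% to 98.9% of the mean control length. Of 22 stretches 16 were longer than in both control lists and 0 shorter (60.8% longer and 8.15% shorter over all), and the median log2 ratio was 0.18 against 0.13. Against the siRNA control the count was 16 of 22, where 63.6% of all stretches were longer, and against list 1 it was 22 of 22, where 89.0% were. The 22 include a stretch at Eomes (chr9:118404999-118408212) that met the window only through the knock-down peak. Its log2 ratio of 1.06 was the largest, and it is among the longer stretches in each of these counts. Of 30 peaks 2 were new, of 1285 bp at Otx2 and 924 bp at Pax6, where 14.0% of the list was new. This list was also the largest of all, with 47296 peaks against 35027 and 42857 in the controls, and how far list size or depth took part was not tested.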

How the data were processed

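Each list belongs to 1 sample and gives a chromosome, start, end and score per peak. The score is the authors' deposited value; its definition and the caller settings are not given in the sources used here. Per the file headers the peak names carry MACS, and the submitters' processing notes name Bowtie, TopHat, Cufflinks and mm9, without roles. Groups and replicates came from the titles. The IgG sample and 9 RNA samples of the 30 were not analysed here.

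Reference regions were merged peaks of lists without knock-down, found in both lists where there were 2. A region was kept if a knock-down peak overlapped it by at least 1 bp, otherwise missing. New peaks of a knock-down list are those that met no control peak. Stretches were merged peaks of the control and knock-down lists with a peak in every one, compared by summed length. Percent values are shares of these regions, with Wilson 95% intervals, which cover counting only. Lengths of 2 lists against 2 were compared by a two-sided exact permutation test, which did not pair the same-numbered lists that share an antibody or lot. Coordinates are counted from 1. A list of other germ layer regulators was not used, since no mm9 annotation was at hand. The naming rule takes all 7 loci. Members and lists were chosen with earlier results of these data known. Promoters and CG counts came from the RefSeq table.

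The alternatives tried were peaks at or above the target's median control score, an overlap of 0.5 of the shorter peak, peaks within 1000 bp, lists of equal length, clipped peaks, windows widened by 10000 bp, regions of either list, each replicate left out and same-numbered lists as a block. Read depth is unknown, so a missing peak does not measure the signal left. The tools were bedtools 2.31.1, Python 3.11.15, SciPy 1.17.1, NumPy 2.4.6 and, for plots, Matplotlib 3.10.9; overlaps were checked against bedtools and on simulated data.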

Additional observations from a re-analysis of the deposited data

How the results depend on the processing

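Of 63 alternatives of the kept shares, 59 stayed within the Wilson interval of the main value and 4 moved. For EPOP and EloB this interval pooled both knock-down lists (1 of 40 and 0 of 6 kept), so each region was counted once per list. The EPOP values that moved were 0%, which lies within the interval given above for knock-down list 1 alone (0 to 16.1%). Of 162 alternatives of the summed lengths at single loci, 144 stayed and 18 moved. A length stayed if it changed by no more than the SD of the knock-down ratios to the 2 control lists. With 1 control list, or a control list at 0, any change counted as moved, so these counts are not alike among targets. The length turned from above to below the mean control length, or the reverse, in 8 of the 162, all with the higher-scoring part. These were Jarid2 at Otx2 (98.6% to 104%), H3K27me3 at T (106% to 88.4%) and Eomes (79.9% to 108%), H3K4me3 upon EPOP knock-down at Gata6 (120% to 83.7%), Gata4 (102% to 98.6%), T (114% to 86.4%) and Otx2 (105% to 97.3%), and H3K4me3 upon EloB knock-down at T (119% to 98.9%). With only peaks at or above the target's median control score (the higher-scoring part), 0% of the EPOP regions were kept upon EPOP knock-down (2.50% with all peaks, both knock-down lists together), and 100% of the Suz12 regions (93.8%) and 100% of the Jarid2 regions (93.3%). Leaving out each list in turn gave 0 to 5.00% kept for EPOP, with 0% without EPOP knock-down replicate 2, which holds the Pax6 peak, and 5.00% without EPOP knock-down replicate 1, whose description names IgG. It gave 0% throughout for EloB, 78.9 to 95.7% for Suz12 upon EPOP knock-down, 94.7 to 100% for Suz12 upon EloB knock-down, and for H3K4me3 96.4 to 100% when EPOP was depleted and 100% when EloB was. For Jarid2 and H3K27me3, with 1 list a side, none could be left out. For EPOP, lists of equal length left no region in the windows and gave no value.

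Same-numbered EPOP and EloB lists share an antibody or lot per the labels, which do not name a shared culture or day. With replicate number as a block (regions of each list against its same-numbered knock-down list), the mean of the 2 kept shares was 2.08% for EPOP (0 of 22 regions in replicate 1 and 1 of 24 in replicate 2) and 0% for EloB. The loci whose summed H3K4me3 length upon EloB knock-down exceeded both controls numbered 7 with whole peaks, 6 with clipped peaks or windows widened by 10000 bp and 5 with the higher-scoring part. Summed H3K27me3 length at Gata4 upon EPOP knock-down was 123% of the control with all peaks and 816% with the higher-scoring part, which drops the 13316 bp control peak at a score of 100. Read depth is unknown, so a peak missing from a short list cannot be told apart from one under its threshold.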

Other observations

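Stretches of H3K4me3 without any polycomb peak also lay in the windows. At Gata4 one spanned 2586 bp in H3K4me3 list 2 (chr14:63811047-63813632), and at Otx2 one of 2845 bp lay at chr14:49273027-49275871, merged over both control lists. No list of EPOP, EloB, Suz12, Jarid2 or H3K27me3 without knock-down had a peak on either. Upon EloB knock-down these stretches were covered for 2668 bp at Gata4 (2303 and 2586 bp without knock-down) and 3552 bp at Otx2 (2329 and 2657 bp). Over all H3K4me3 stretches 60.8% were longer than in both control lists upon EloB knock-down. The EPOP knock-down list covered 2409 bp at Gata4 and 2650 bp at Otx2, between the controls.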
